A study of Xenopus tropicalis with 31 samples.

Results

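The regions described here carried histone H3 acetylated or trimethylated at lysine 27 in the endoderm of Xenopus tropicalis gastrulae at stage 10.5. They were all 17263 regions of the H3K27ac list and all 27207 regions of the H3K27me3 list made from that tissue, together 44470 of the 190255 regions and peaks in the 16 lists read from the series. Each base, region, peak or gene was placed in 1 of 4 states by overlap of at least 1 bp with the lists, namely H3K27ac alone, both marks, H3K27me3 alone or neither mark. The rule used no value of binding or expression. All embryos were of wild-type X. tropicalis, fertilized in vitro and, except in the FSMO group described below, given no morpholino, fixed with formaldehyde, and dissected into presumptive endoderm (the vegetal pole) or ectoderm (the animal pole) for the histone marks and Ep300. The H3K27ac endoderm group had 1 labelled sample, although the series' design speaks of duplicates for the marks and Ep300, and the H3K27me3 endoderm group had 2 samples that were pooled into 1 list. Endoderm Ep300 at stage 10.5 had 1 labelled sample in a first experiment, and in a second experiment 2 wild-type samples and 2 FSMO samples, from embryos given translation-blocking morpholinos against foxi2 and sox3. Foxi2 and Sox3 were mapped in whole wild-type embryos, with 2 samples at each of stages 8, 9 and 10.5, so that their peaks could lie in any tissue. Every group was deposited as 1 list, so no spread between samples could be had. The intervals given below are 95% Wilson intervals, which cover counting error only, and neighbouring peaks or regions are not independent.

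Acetylation of H3K27 is deposited by the related enzymes Ep300 and CBP and is found at active enhancers and promoters. Trimethylation of the same residue is deposited by Polycomb repressive complex 2, whose catalytic subunit is Ezh2, and is found over silent developmental genes. One H3 tail cannot carry both modifications on that lysine, but neighbouring tails, the other allele or other cells of a dissected tissue can, and these cannot be told apart in bulk chromatin. In Xenopus the vegetal cells become endoderm through maternal VegT, Nodal ligands and transcription factors of the Mix, Sox17, Gata and Foxa families, whereas Foxi2 and Sox3 are maternal factors of the ectoderm.

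The tissue label was checked on marker genes fixed for 3 germ layers. The 1000 bp to each side of either gene end held H3K27ac for 9 of 11 endoderm markers in endoderm and for 0 of 11 in ectoderm. For 10 ectoderm markers the counts were 3 in endoderm and 9 in ectoderm. Of 6 mesoderm markers, 3 carried H3K27ac in endoderm and 0 in ectoderm. Of protein-coding genes, 39.1% carried H3K27ac in endoderm and 45.8% in ectoderm. The mesoderm count in endoderm was thus not far from that background, and 6 genes are too few to tell it apart. H3K27me3 did not separate the tissues at these markers, so the check bears on the H3K27ac lists alone. It was found at 6 of 11 endoderm markers in endoderm and 7 in ectoderm. The counts were 5 and 4 of 10 ectoderm markers, and 2 and 2 of 6 mesoderm markers. Of protein-coding genes, 27.7% carried H3K27me3 in endoderm and 32.4% in ectoderm.

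H3K27ac and H3K27me3 covered similar lengths of the genome and overlapped over part of it. The H3K27ac regions spanned 140.1 Mb and the H3K27me3 regions 156 Mb of the 1449 Mb of the 10 chromosomes, that is 9.67% and 10.8%. Both marks lay over the same 27.8 Mb, which was 1.92% of the genome, 19.8% of the acetylated bases and 17.8% of the trimethylated bases. H3K27ac was alone over 112 Mb, H3K27me3 was alone over 128 Mb and 1181 Mb had neither. Counted by region, 4963 of the 17263 H3K27ac regions overlapped H3K27me3 (28.7%, interval 28.1 to 29.4%), and 5341 of the 27207 H3K27me3 regions overlapped H3K27ac (19.6%, interval 19.2 to 20.1%). In ectoderm the corresponding shares of regions were 30.7% of 16257 and 19.9% of 29268, with both marks over 29.8 Mb.

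These spans included gaps. Both lists had been stitched, that is, called loci within 12 kb of each other had been joined, and the loci inside the H3K27ac regions made up 38 Mb, or 27.1% of their span. Among the 9437 H3K27ac regions of 1 locus, which hold no gap, 14.7% (interval 14 to 15.4%) overlapped H3K27me3. Of their bases 14.5% carried H3K27me3, against 19.8% of all acetylated bases. The share of regions was 2.53% when the H3K27me3 regions were limited to those of 1 locus as well. Regions of 1 locus held 3.73% of the H3K27ac bases and 8.41% of the H3K27me3 bases. These limits thus drop most of both lists, the loci inside stitched regions included. They cannot show how far those loci carry both marks.

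Regions with both marks were wide. The H3K27ac regions that overlapped H3K27me3 had a median width of 10351 bp (quartiles 1220 and 24846 bp) and those that did not had a median of 658 bp (337 and 3691 bp). For H3K27me3 the medians were 8342 bp (946 and 17777 bp) with H3K27ac and 973 bp (410 and 4378 bp) without it. Regions of 2 or more loci held 92.9 of the 93.8 Mb of H3K27ac regions with H3K27me3 and 42 of the 46.3 Mb without it. The difference in width was small among regions of 1 locus, with medians of 446 and 408 bp for H3K27ac and of 538 and 561 bp for H3K27me3.

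The share of regions touched by the other mark grew with width, which gives a region more bases to be touched, while the share of their bases grew less. Of the H3K27ac regions under 500 bp, 13.4% overlapped H3K27me3, against 42% of those from 5000 bp to under 20000 bp and 90.9% of the 530 regions of 50000 bp or more. The share of bases covered by H3K27me3 in the same classes was 12.5%, 18.5% and 22.7%. For H3K27me3 regions the share of bases with H3K27ac was 10.4% under 500 bp and 29.4% in the 229 regions of 50000 bp or more. The genome as a whole had H3K27me3 over 10.8% of its bases, so the smallest acetylated regions lay near that level.

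**Figure D1:**
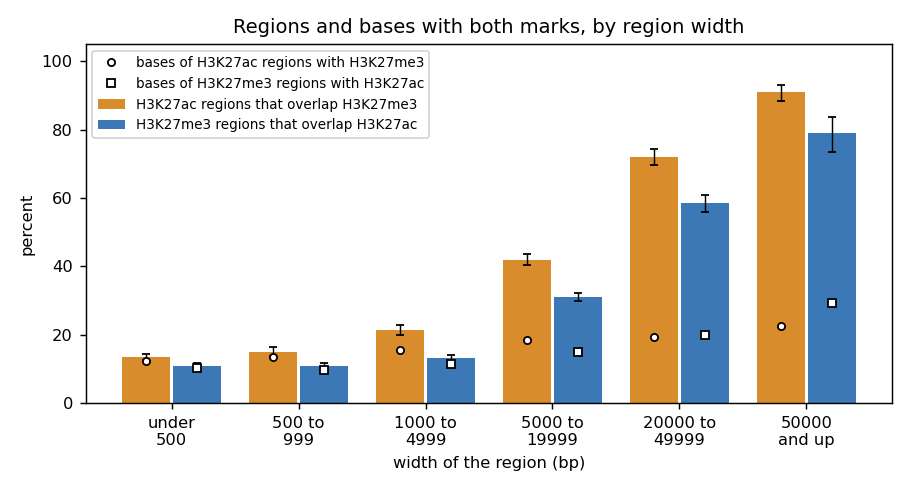
Percent of H3K27ac regions (orange) and H3K27me3 regions (blue) of endoderm that overlapped the other mark, in 6 classes of region width in bp. Error bars are 95% Wilson intervals, and the open symbols give the percent of the bases of the same regions that carried the other mark. The bars climb from 13.4% to 90.9% for H3K27ac, while the share of bases goes from 12.5% to 22.7%.

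The regions ranked above the ROSE cutoff, which separates the regions with the most signal and is used to name super-enhancers in an H3K27ac list, carried the other mark more often than those below it. Of the 671 H3K27ac regions above it, 609 (90.8%, interval 88.3 to 92.7%) overlapped H3K27me3, against 26.2% of the other 16592. Ectoderm was nearly the same, with 1037 of 1156 (89.7%, interval 87.8 to 91.3%) against 26.2%. Of the 127 endoderm H3K27me3 regions above their cutoff, 81 (63.8%, interval 55.1 to 71.6%) overlapped H3K27ac, against 19.4% of the others. Here ectoderm differed, with 83 of 243 (34.2%, interval 28.5 to 40.3%). Regions above a cutoff are also wide, and among all regions of 50000 bp or more the shares were 90.9% for H3K27ac and 79% for H3K27me3. The H3K27ac ranks come from a signal column whose heading names the animal pole, although its region names say vegetal.

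The overlap was often partial. A median of 49.1% (quartiles 10.7 and 100%) of an H3K27ac region with both marks was covered by H3K27me3, and 33.3% of these 4963 regions lay wholly inside H3K27me3. The H3K27me3 regions with H3K27ac had a median of 77.4% covered, and 43.8% of these 5341 lay wholly inside H3K27ac regions.

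The bases with both marks formed 5612 stretches with a median length of 1288 bp (quartiles 412 and 6354 bp). The 858 stretches of 10000 bp or more held 63.1% of these bases. Chromosomes differed in the share of acetylated bases that also carried H3K27me3, from 15.1% on chromosome 10 to 26.2% on chromosome 8. The longest stretch was chr4:11890101-12255531, of 365431 bp, inside the H3K27ac region ranked 4 with 114 loci and the H3K27me3 region ranked 12 with 197 loci. A second stretch of 156918 bp followed on the same chromosome at chr4:12283457-12440374. The third in length was chr8:13895359-14047163, of 151805 bp. The RefSeq genes in these 3 stretches, 19, 9 and 12 in number, were all unnamed loci, of which 6, 4 and 7 were protein-coding and the others long noncoding. Ectoderm also had both marks over 68.3%, 50% and 49.6% of their bases. The named developmental genes with both marks lay elsewhere.

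The same bases were compared with the ectoderm lists. Of the 27.8 Mb with both marks in endoderm, 36.5% had both marks in ectoderm, 22.9% had H3K27ac alone, 20.5% had H3K27me3 alone and 20.2% had neither. Of all endoderm H3K27me3 bases, 57.2% had H3K27me3 alone in ectoderm and 12.4% had both marks there. Of all endoderm H3K27ac bases, 42.8% had H3K27ac alone in ectoderm and 10% had both marks there. Trimethylation was therefore shared over a larger part of its span than acetylation.

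Of the 8 gene lists examined, the endoderm regulators had the largest share of genes with both marks. The reference table gives no strand, so the 1000 bp to each side of both gene ends were searched, 1 of which holds the promoter. Of 45 endoderm regulators found among the 51 listed, 25 had both marks (55.6%, interval 41.2 to 69.1%), 10 had H3K27ac alone, 2 had H3K27me3 alone and 8 had neither. Over all 28773 RefSeq genes the background was 14.3% with both marks, 23.4% with H3K27ac alone and 19.3% with H3K27me3 alone, and over the 21749 protein-coding genes it was 12.5%, 26.6% and 15.2%. In 22 of the 25 genes the marks shared at least 1 base in those windows. With the ectoderm lists 1 of the 45 had both marks, 4 had H3K27ac alone, 21 had H3K27me3 alone and 19 (42.2%) had neither, against 16.5%, 29.3%, 15.9% and 38.3% of protein-coding genes in those states of ectoderm. None of the 25 genes with both marks in endoderm had both in ectoderm, where 16 had H3K27me3 alone, 8 had neither and 1, gdf3, had H3K27ac alone. Among protein-coding genes with both marks in endoderm, by comparison, 1803 of 2712 (66.5%) also had both in ectoderm. The count was 2 of the 45 with H3K27ac regions of 1 locus, which held 3.73% of the H3K27ac bases. It was 0 with H3K27me3 regions above the ROSE cutoff, 127 of 27207, and 0 with regions of 1 locus in both lists. Such settings leave out whole regions, called loci included. They cannot show whether the loci inside stitched regions carry both marks. The genes of this list and the others were chosen with earlier results of these data known.

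**Figure D2:**
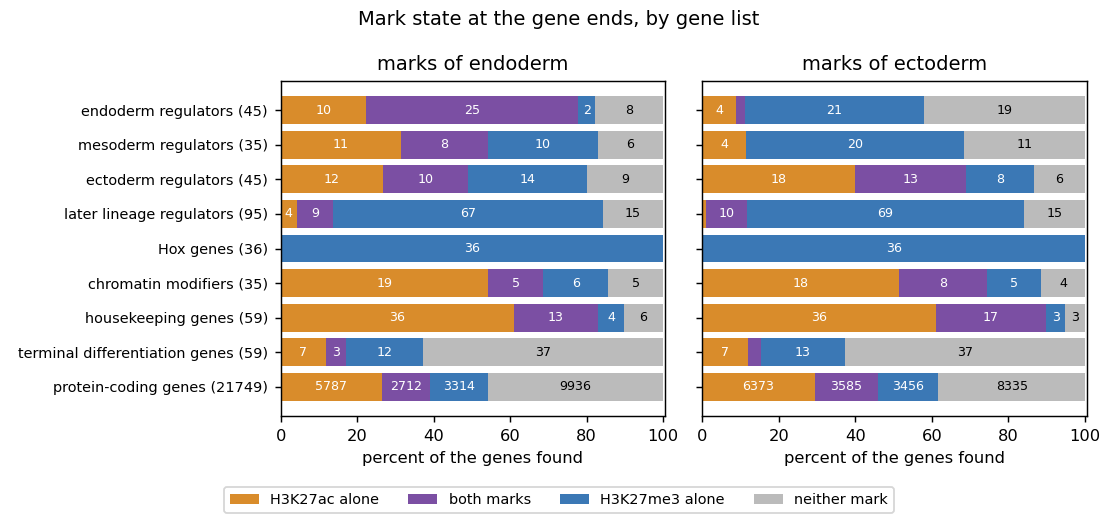
Percent of the genes of each list by mark state at the gene ends (1000 bp to each side of both ends), with the endoderm lists of marks (left) and the ectoderm lists of marks (right). Numbers in the bars are gene counts and the number found is beside each list. Endoderm regulators with both marks number 25 of 45 in endoderm and 1 of 45 in ectoderm, while the 36 Hox genes have H3K27me3 alone in both.

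Among the endoderm regulators with both marks at their ends, the widest joint cover was over transcription factors of the mesendoderm. Lengths are given over the gene with 10000 bp to each side, here and in the paragraphs that follow. They are spans of the listed regions, gaps between joined loci included, and called loci made up 27.1% of the H3K27ac span. A length with both marks is therefore not continuous marking. Eomes, a T-box factor of the Nodal response (chr6:48267420-48273884), had both marks over all 26465 bp, with 3 peaks in each of the wild-type Ep300 lists. Bix1.1, a Mix-family homeobox gene (chr5:8104087-8106312), had both over all 22226 bp. In the same Mix cluster mixer had both over 16993 of 23909 bp and bix1.2 over 15533 of 27207 bp, with H3K27ac alone over the rest of each. Mix1 (chr5:8057280-8060597), which lies between them, had H3K27ac alone at its ends, with 8609 bp of both marks nearby. The odd-skipped zinc-finger genes osr2 and osr1 had both marks over 26978 of 29778 bp and 20594 of 32161 bp. All of these except mix1, mixer, bix1.1 and bix1.2, which had neither mark in ectoderm, had H3K27me3 alone there.

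The Sox17 genes encode HMG-box factors that maintain endodermal fate, and their cluster on chromosome 6 was covered by both marks. Sox17a (chr6:115156636-115158925) had both over 18603 of 22290 bp, sox17b.1 over 20407 of 22104 bp and sox17b.2 over 11206 of 21994 bp. The first experiment placed 4, 6 and 4 Ep300 peaks around them and the second 5, 5 and 3, and these windows overlap. The cluster had H3K27me3 alone at the ends of all 3 genes in ectoderm.

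The Foxa, Hhex and Lhx1 factors of anterior endoderm and organizer also combined the marks. Foxa2, a forkhead pioneer factor (chr5:35625407-35628026), had both over 15139 bp and H3K27me3 alone over 7283 of 22620 bp. Hhex, a homeobox factor of the foregut and liver bud (chr7:25591485-25602685), had both over 15526 bp and H3K27me3 alone over 11939 of 31201 bp, with no base of H3K27ac alone. Lhx1 had both over 13246 of 30879 bp. Gata6, a zinc-finger factor of endoderm, had 7940 bp with both, 4762 bp with H3K27ac alone and 9104 bp with H3K27me3 alone.

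A further group had both marks at the gene ends and shared less of its length. Gsc and otx2, homeobox genes of the organizer and the head, lay within H3K27me3 over 21214 of 22731 bp and all 26881 bp and shared 301 and 313 bp with H3K27ac. They still had 2 and 3 Ep300 peaks in the first experiment, and 2 and 6 in the second. Cer1, a secreted inhibitor of Nodal, Wnt and BMP ligands (chr1:124203269-124206964), had the reverse, with 20877 of 23696 bp acetylated and 1465 bp shared. Nodal1 shared 1195 of 22570 bp and admp, a BMP-related ligand of the organizer, 603 of 23489 bp, both being acetylated over nearly their whole length. Wnt11 and frzb, a Wnt ligand and a secreted Wnt inhibitor, shared no base, since each mark lay at another place. Nodal, foxa1 and gdf3 shared 4726, 3451 and 1773 bp.

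The 10 endoderm regulators with H3K27ac alone at their ends included mix1, described above, and genes of Nodal signalling. Vegt, the maternal T-box factor, was acetylated over all 31400 bp, foxa4 over all 23520 bp and lefty, a feedback inhibitor of Nodal, over all 23734 bp. The Nodal ligand nodal2 had 16847 acetylated bp of 24854, and foxh1, a DNA-binding partner of Smad2, 23986 of 34815. Smad2 had 23984 of 56422 bp, the Nodal co-receptors tdgf1.2 and tdgf1.3 had 25432 of 28851 and 5869 of 23406 bp, and wnt11b was acetylated over all 26059 bp. H3K27me3 was still present within several of these lengths. It shared 2145 bp with H3K27ac at lefty, 1998 bp at vegt, 1649 bp at foxh1, 1195 bp at nodal2, 406 bp at foxa4 and 265 bp at smad2. Smad2 had 5161 bp of H3K27me3 in all, while tdgf1.2, tdgf1.3 and wnt11b had none. In ectoderm vegt, foxa4, lefty and nodal2 had H3K27me3 alone, mix1 and wnt11b had neither mark, smad2, foxh1 and tdgf1.2 had H3K27ac alone and tdgf1.3 had both.

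Dkk1, a secreted Wnt inhibitor, and sia1, a homeobox gene of the organizer, had H3K27me3 alone, over 11609 of 24719 bp and all 22250 bp. Of the 8 genes with neither mark at the ends, gata4 and gata5 stood inside marked chromatin. Gata4 had 38016 acetylated bp and 30255 bp with both marks of 86178, and gata5 73511 acetylated bp and 32490 bp with both of 173022. Their RefSeq models are long (chr5:150613881-150680058 and chr10:4876409-5029430), and whether their outer ends are the promoters used at this stage was not tested. Sox18, with a still longer model, had 9511 bp with both of 374190. Nodal5 had 7680 acetylated bp of 21737, of which 635 bp also carried H3K27me3. Nodal6 had 242 acetylated bp and 3673 bp of H3K27me3 of 22246. Sia2 had 8780 bp of H3K27me3 of 21829, sox7 had 373 acetylated bp of 25413, and gdf1 had no base of either mark.

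**Figure D3:**
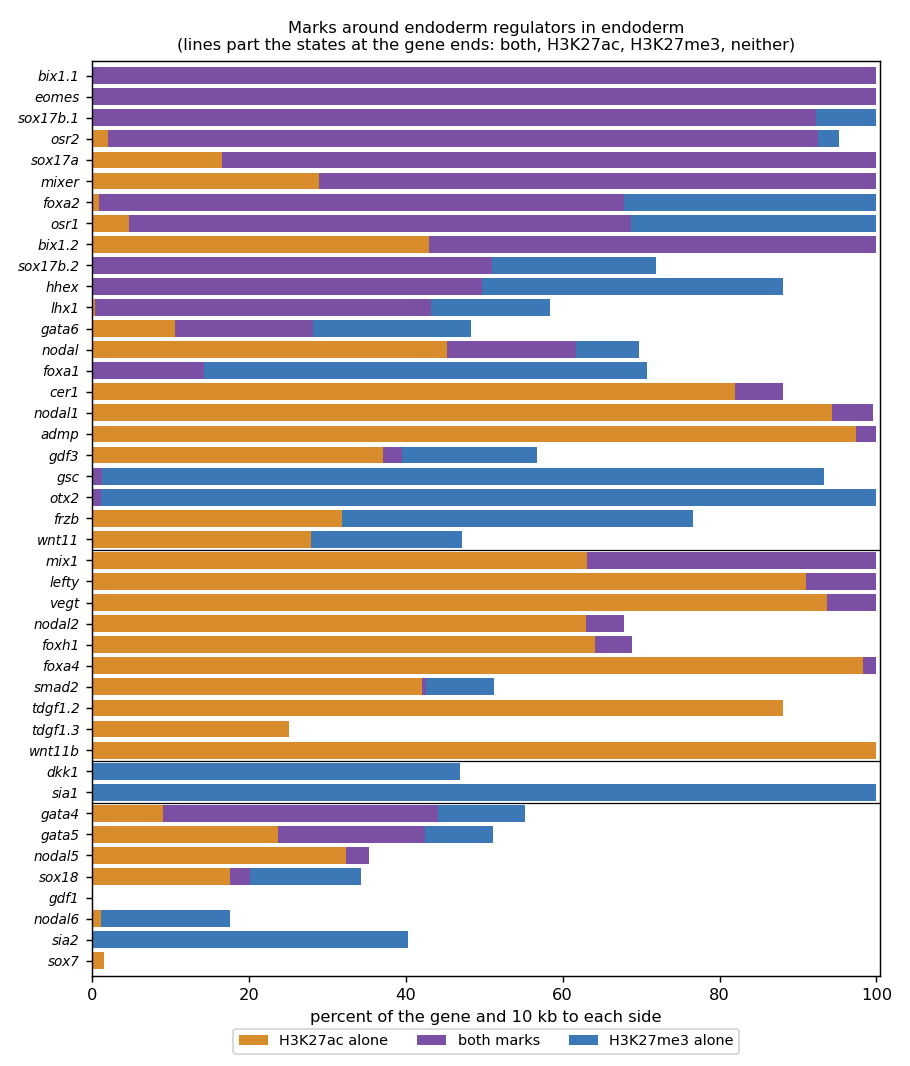
Percent of each endoderm regulator's gene and 10 kb to each side that carried H3K27ac alone (orange), both marks (purple) or H3K27me3 alone (blue) in endoderm, 1 bar for each of 43 of the 45 genes. Black lines part the genes by state at their ends, from those with both marks at the top to the 8 with neither at the bottom. Bix1.1 and eomes lie wholly within regions of both marks. The bars are spans of the listed regions and include gaps between joined loci.

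Mesodermal and ectodermal regulators were spread over the states. Of 35 mesoderm regulators 11 had H3K27ac alone, 8 both marks, 10 H3K27me3 alone and 6 neither. In ectoderm 0 of them had both, against 16.5% of protein-coding genes, and 20 (57.1%) had H3K27me3 alone, against 15.9%. Cdx2, a caudal homeobox factor, had both marks over 21981 of 27524 bp, wnt8a, a posterior Wnt ligand, over 11388 of 25541 bp, foxc2 over 11054 of 22203 bp and mespa, a segmentation factor, over 10825 of 21970 bp. Those with H3K27ac alone included lmo2, tbx6, pdgfra and mespb, with 3701, 2449, 1015 and 512 bp of both marks within 10000 bp. Of 45 ectoderm regulators 14 had H3K27me3 alone in endoderm, 12 H3K27ac alone, 10 both and 9 neither, against 8, 18, 13 and 6 in ectoderm. In endoderm H3K27me3 alone thus stood at 28.6% of the mesoderm and 31.1% of the ectoderm regulators, against 15.2% of protein-coding genes. Both marks stood at 22.9% (interval 12.1 to 39%) and 22.2% (12.5 to 36.3%), against 12.5%. For H3K27ac alone the shares were 31.4% and 26.7%, against 26.6%. The ectodermal genes with both marks in endoderm included zic2 (11541 of 24351 bp), msx1 (11068 of 23176 bp), gata2 (5224 of 32288 bp) and tfap2e (1931 of 45705 bp), of which zic2, msx1 and gata2 had both in ectoderm too. Sox21, an HMG-box factor of neural progenitors, and hes4, a basic helix-loop-helix repressor, had H3K27me3 alone in endoderm and both marks in ectoderm, whereas msx2 and gata3 had H3K27me3 alone in both tissues.

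The Hox genes, which set position along the body axis after gastrulation, carried H3K27me3 alone in all 36 cases in both tissues. Of protein-coding genes 15.2% did so in endoderm and 15.9% in ectoderm. These genes are not independent, as they lie in 4 chromosomal clusters and were touched by 8 H3K27me3 regions, 4 of them above the ROSE cutoff. The widest was chr9:64948629-65107260, of 158632 bp with 6 Hox genes, and the one with the most Hox genes was of 117625 bp with 10. H3K27ac covered 1.69% and 0.17% of these regions, and at most 0.274% of the other 6. With regions of 1 locus in both lists, 2 of the 36 genes had H3K27me3 alone. Within 10000 bp, hoxb2 shared 311 bp and hoxa2 and hoxa3 shared 200 bp with H3K27ac. Later lineage regulators, which are transcription factors of organs not yet formed, had H3K27me3 alone in 67 of 95 (70.5%, interval 60.7 to 78.8%), against 15.2% of protein-coding genes. Both marks were at 9 (9.47%, interval 5.06 to 17%), near the 12.5% of protein-coding genes. In ectoderm 63 of those 67 (94%) had H3K27me3 alone as well, against 2145 of 3314 protein-coding genes (64.7%). The count of 67 was 7 with H3K27me3 regions above the ROSE cutoff and 20 with regions of 1 locus in both lists. The 9 with both marks included the T-box genes tbx2 (23883 of 34116 bp) and tbx3 (10780 of 30432 bp) and the homeobox genes irx1 (11761 of 25108 bp) and uncx (10378 of 26048 bp). Tbx20, dbx1, tbx15 and arx were among the 67 and had 2287, 663, 519 and 354 bp of both marks within 10000 bp.

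Genes used by all cells stood mainly in acetylated chromatin. Of 59 housekeeping genes 36 had H3K27ac alone (61%, interval 48.3 to 72.4%), 13 had both marks, 4 H3K27me3 alone and 6 neither. The 36 became 16 with H3K27ac regions of 1 locus and 20 with regions of 1 locus in both lists. In 7 of the 13 the marks shared a base in the windows. Those with both marks included ddx5, an RNA helicase (12134 of 28260 bp), the ribosomal protein genes rpl11 and rps12 (9001 of 28104 and 4564 of 25417 bp) and polr2a, the large subunit of RNA polymerase II (4764 of 39649 bp). Rpl19, psma1, tubb and hsp90ab1 had H3K27ac alone. The chromatin modifiers had H3K27ac alone in 19 of 35 (54.3%), both marks in 5 (14.3%), H3K27me3 alone in 6 (17.1%) and neither in 5. Protein-coding genes had 26.6%, 12.5% and 15.2% in the first 3 states. The shares of chromatin modifiers with both marks and with H3K27me3 alone were thus near the background. Ezh2, jarid2 and cbx2 of the Polycomb system and the deacetylase hdac1 had H3K27ac alone, while suz12, aebp2, pcgf2 and bmi1, which also encode Polycomb proteins, had both. Of 59 terminal differentiation genes 37 had neither mark, pnlip, acan, alb and apoa1 among them, 12 had H3K27me3 alone, 7 H3K27ac alone and 3, myh6, tshb and spi1, both. Spi1, although in this list, encodes a transcription factor of myeloid and B cell specification. The 37 were 62.7% (interval 50 to 73.9%), against 45.7% of protein-coding genes with neither mark.

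Small RNA genes were also marked. Of 2366 tRNA genes 862 (36.4%) had both marks and 872 (36.9%) H3K27me3 alone. The counts were 75 (12.2%) and 456 (74.3%) of 614 snRNA genes, and 66 (14.3%) and 285 (61.6%) of 463 rRNA genes. Over all RefSeq genes the shares were 14.3% and 19.3%. Only the tRNA genes thus exceeded the background for both marks, while all 3 kinds exceeded it for H3K27me3 alone. These genes are repeated in near-identical copies, so reads cannot be assigned to 1 copy with certainty. Within 1000 bp of such genes lay 2.34% of the bases with both marks and 0.207% of the genome, so they account for little of the joint span.

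Ep300 occupied all 4 states in endoderm. In the first experiment 3654 of 11690 peaks (31.3%) lay in H3K27ac alone, 2517 (21.5%, interval 20.8 to 22.3%) in both marks, 3036 (26%, interval 25.2 to 26.8%) in H3K27me3 alone and 2483 (21.2%) in neither. In the second experiment the wild-type list of 11597 peaks had 40%, 18.2%, 19.7% and 22.1%, and the FSMO list of 11247 peaks 38.1%, 18.9%, 21.4% and 21.6%. Peaks with any H3K27me3 thus made up 47.5% of the first list and 37.9% of the second wild-type list. With H3K27ac regions of 1 locus, 0.932% of the first list's peaks lay in both marks and 46.6% in H3K27me3 alone. Fold enrichment also differed between the experiments, as given below, and its part in these shares was not tested.

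By length of chromatin, Ep300 summits were densest where both marks were present. The first experiment had 84.7 summits per Mb with both marks (Poisson interval 81.3 to 88.2), 32.6 (31.5 to 33.6) with H3K27ac alone, 23.6 (22.8 to 24.4) with H3K27me3 alone and 2.25 (2.16 to 2.34) with neither. The second wild-type list gave the same order, with 64.2 (61.2 to 67.2), 41.3 (40.1 to 42.5), 17.9 (17.1 to 18.6) and 2.45 (2.36 to 2.54). Regions with both marks also held an Ep300 peak more often at a like width. Of the H3K27ac regions from 5000 bp to under 20000 bp, 40% of 1551 with H3K27me3 and 23% of 2143 without it had a peak of the first experiment. From 20000 bp to under 50000 bp the shares were 69.2% of 1088 and 54.3% of 422, and at 50000 bp or more 93.8% of 482 and 87.5% of 48, where the intervals (91.3 to 95.6% and 75.3 to 94.1%) overlapped. The second wild-type list gave smaller gaps in these 3 classes. Its shares were 41.8% and 27.5%, then 70% and 61.4%, and at 50000 bp or more 92.9% and 91.7%.

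**Figure D4:**
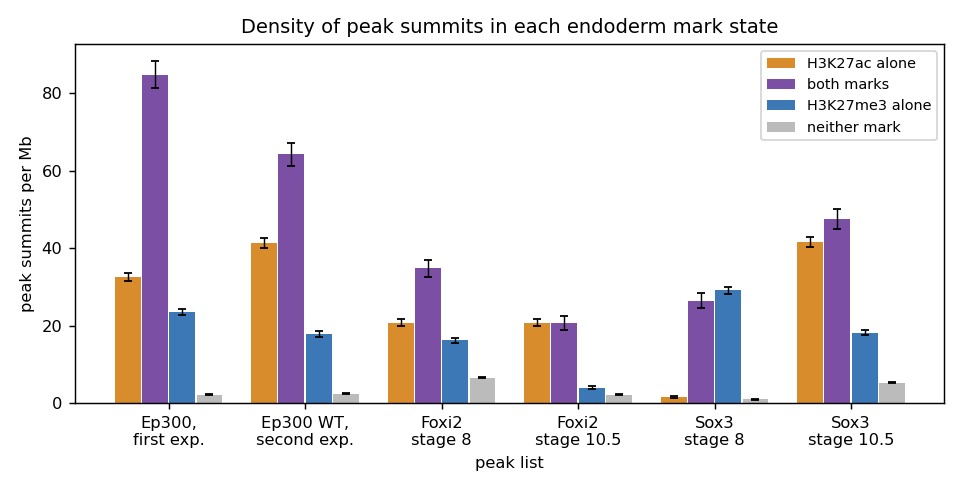
Peak summits per Mb in each endoderm mark state for 6 peak lists, with exact 95% Poisson intervals as error bars. Ep300 is highest with both marks (84.7 and 64.2 per Mb), Foxi2 at stage 10.5 is alike with both marks and with H3K27ac alone (20.7 and 20.8), and Sox3 at stage 8 is lowest of the marked states with H3K27ac alone (1.58).

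Peak strength also varied with state. Median fold enrichment over input in the second wild-type list was 11.3 (quartiles 8.21 and 15.8) with both marks, 10.2 (7.53 and 14.3) with H3K27ac alone, 8.33 (6.83 and 10.8) with H3K27me3 alone and 7.75 (6.49 and 9.69) with neither. In the first experiment the order differed, with medians of 3.8 (2.1 and 5.45), 4.34 (3.58 and 5.6), 3.35 (2.01 and 4.4) and 3.42 (2.87 and 4.14). The quartile ranges overlapped in every case.

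Recurrence of the Ep300 peaks between experiments depended on the state. Of the peaks of the first experiment, 85.5% in H3K27ac alone overlapped a wild-type peak of the second, against 61.4% with both marks, 44.9% with H3K27me3 alone and 44.1% with neither. The difference between both marks and H3K27ac alone was -24 percentage points (Newcombe interval -26.3 to -21.8). In the other direction 76.1% of the second list's peaks with both marks overlapped the first list, against 64.4% with H3K27ac alone, 57.6% with H3K27me3 alone and 38.8% with neither. Peaks outside acetylated chromatin were thus the least often found again in either direction.

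The strongest Ep300 peaks of the first experiment in each state differed in the same way. In H3K27ac alone they included chr8:3324999-3326361 within npdc1.1 and chr5:137444225-137445604, 1479 bp from id2. Their fold enrichments were 12.7 and 13.5 in the first experiment and 28.7 and 22.4 in the second, and both overlapped Foxi2 and Sox3 peaks of stage 10.5. With both marks they were chr7:132098625-132099181, 7171 bp from cela3a, chr1:338066-338706 within htra2 and chr5:141284461-141285068 within fam49a. These had both marks in ectoderm too, and each overlapped Sox3 peaks of stages 8 and 10.5. With H3K27me3 alone the 3 lay within or beside unnamed loci, and 1 of them was absent from the second wild-type list. With neither mark the nearest genes were tor1b, dock1 and arl8a, and 0 of the 3 peaks was found in the second wild-type or the FSMO list although their fold enrichments in the first were 17.7, 15.8 and 13.8.

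Most wild-type endoderm Ep300 peaks of the second experiment were also present in the FSMO list of that experiment in every state. The paper's methods describe morpholino injection into the animal side of the early embryo. How far the 2 factors were depleted in the dissected endoderm was not tested here. Of the second wild-type list, 91.7% of the peaks with both marks overlapped an FSMO peak. The shares were 84.9% with H3K27ac alone, 84.3% with H3K27me3 alone and 73.6% with neither mark. The difference between both marks and H3K27ac alone was 6.77 percentage points (Newcombe interval 5.16 to 8.3). Of the first experiment's peaks, 61.3% with both marks, 82.4% with H3K27ac alone, 45.4% with H3K27me3 alone and 41.6% with neither overlapped the FSMO list. Here the difference between both marks and H3K27ac alone was -21.1 percentage points (interval -23.3 to -18.8), the reverse in sign. Against the second wild-type list the same peaks gave 61.4% and 85.5%, a difference of -24 percentage points (interval -26.3 to -21.8). The reversed sign was thus also seen between the wild-type lists, without morpholinos. The second experiment's wild-type peaks were also split into terciles by −log10 of the peak p-value. In the weakest tercile 62.2% with both marks (interval 57.1 to 67.1%) and 55.8% with H3K27ac alone (53.1 to 58.4%) were kept. The shares were 93.5% and 92.4% in the middle tercile and 99.9% and 99.8% in the strongest. The difference was thus clearly smaller only in the middle and strongest terciles, where most peaks of either state were kept and little difference was possible. Among the weakest peaks, 64.6% (interval 61.4 to 67.6%) with H3K27me3 alone and 54.4% (51.7 to 57.1%) with neither mark were kept.

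The Foxi2 lists of whole embryos differed in length and in their make-up by endoderm state. At stage 8, 17.8% of 13158 peaks lay in H3K27ac alone, 8.34% in both marks, 16.3% in H3K27me3 alone and 57.5% in neither. At stage 9 the shares of 6668 peaks were 25.6%, 11.5%, 15.2% and 47.7%. At stage 10.5, of 6039 peaks, 39.2% lay in H3K27ac alone, 11.1% (interval 10.3 to 11.9%) in both, 8.88% in H3K27me3 alone and 40.8% in neither. H3K27ac regions of ectoderm overlapped 65.8% of these 6039 peaks, and those of endoderm 50.3%. Ectoderm H3K27ac overlapped 78.7% of the peaks in endoderm H3K27ac alone and 56.9% of those with neither mark in endoderm. The number in H3K27ac alone was 2348 at stage 8 and 2367 at stage 10.5, while the number in neither went from 7564 to 2466 and that in H3K27me3 alone from 2148 to 536. The near-equal numbers in H3K27ac alone were not all the same sites. Of the 2367, 1212 (51.2%) overlapped a Foxi2 peak of stage 8, against 67.3% in both marks, 66.2% in H3K27me3 alone and 57.2% in neither. The endoderm marks compared here were measured at stage 10.5. Foxi2 summits of stage 10.5 had the same density with both marks, 20.7 per Mb (19 to 22.4), as with H3K27ac alone, 20.8 (19.9 to 21.6), and 4.04 (3.7 to 4.4) with H3K27me3 alone. At stage 8 the densities were 34.8 (32.6 to 37), 20.7 (19.9 to 21.6) and 16.2 (15.5 to 16.9).

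Sox3 at stage 8 stood apart from all the other lists. Of its 5827 peaks 3760 (64.5%, interval 63.3 to 65.7%) lay in H3K27me3 alone, 13.4% in both marks, 3.02% in H3K27ac alone and 19% in neither. The pattern was not particular to endoderm. H3K27me3 regions of ectoderm overlapped 4003 of the 5827 peaks (68.7%) and 3296 of the 3760 (87.7%), against 28.7% of the Sox3 peaks of stage 10.5. At stage 9, 31.8% of 4401 peaks lay in H3K27ac alone, 14.8% in both, 17.3% in H3K27me3 alone and 36% in neither, and at stage 10.5, of 14648 peaks, 33.3%, 10.5% (interval 10 to 11%), 16.4% and 39.8%. In every state the stage 8 peaks had the smallest median width and the lowest median −log10 p of the Sox3 lists. The widths in H3K27me3 alone were 328 bp against 570 bp at stage 9 and 458 bp at stage 10.5, and the −log10 p 32.2 against 117 and 58.5. For H3K27ac alone the widths were 431 bp against 644 and 629 bp, and the −log10 p 38.1 against 142 and 91.6. Median fold enrichment did not follow this order, since in every state stage 8 lay below stage 9 and above stage 10.5. It was 14.1 against 16.7 and 10.4 in H3K27me3 alone, and 16.2 against 19.6 and 12.9 in H3K27ac alone. The part of list quality in this pattern was not tested.

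**Figure D5:**
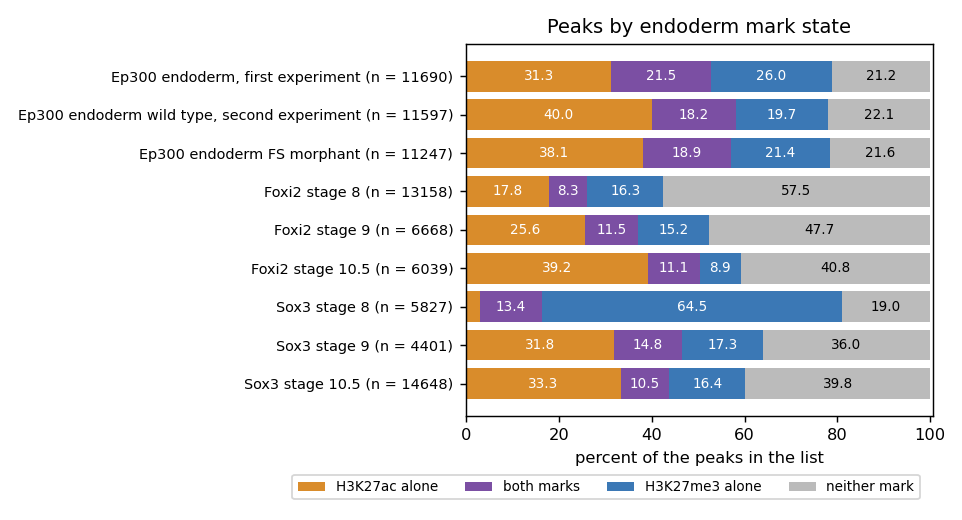
Percent of the peaks of 9 lists in each endoderm mark state (3 Ep300 lists of endoderm, Foxi2 and Sox3 lists of whole embryos at 3 stages), with the number of peaks beside each name. H3K27me3 alone holds 64.5% of the Sox3 peaks of stage 8 and between 8.88% and 26% of every other list.

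Foxi2 and Sox3 met Ep300 peaks at different rates in the 4 states. Of the Ep300 peaks of the first experiment in H3K27ac alone, 33.3% overlapped Foxi2 and 49.4% overlapped Sox3 at stage 10.5, and 30.2% overlapped both factors. With both marks the shares were 18.4%, 33.5% and 16.6%, with H3K27me3 alone 5.6%, 17.9% and 5.07%, and with neither mark 12.8%, 18.9% and 11.3%. In the second wild-type list Foxi2 overlapped 31.3%, 25.3%, 9.29% and 15.7% of the Ep300 peaks in H3K27ac alone, both marks, H3K27me3 alone and neither, and Sox3 46.9%, 46.8%, 29.4% and 23.9%. The difference for Sox3 between both marks and H3K27ac alone was thus -15.9 percentage points (Newcombe interval -18.3 to -13.4) in the first list and -0.0878 (-2.65 to 2.48) in the second. Sox3 peaks of stage 8 overlapped 2.33% of the first list's Ep300 peaks in H3K27ac alone, 21.2% with both marks, 24% with H3K27me3 alone and 1.85% with neither, and 1.81%, 20.5%, 37.1% and 1.25% in the second.

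Seen from the factors, peaks of stage 10.5 in both marks met endoderm Ep300 most often. Of the Foxi2 peaks 70.4% in both marks overlapped an Ep300 peak of the first experiment, 50.6% in H3K27ac alone and 31% in H3K27me3 alone. The corresponding shares of Sox3 peaks were 56.7%, 36.7% and 21.5%. Against ectoderm Ep300 of the first experiment the peaks in both marks and in H3K27ac alone did not differ beyond their intervals, with 51.6% and 52.9% for Foxi2 (difference -1.21 percentage points, Newcombe interval -5.49 to 3.06) and 36.4% and 37.1% for Sox3 (-0.637, -3.37 to 2.14). Around the endoderm regulators 35 of 45 genes had an endoderm Ep300 peak of the first experiment within 10000 bp, 30 a Foxi2 peak and 36 a Sox3 peak of stage 10.5, against 23.4%, 15.8% and 34.8% of protein-coding genes, whose median length was 15506 bp against 5413 bp in the list. These shares were not particular to the endoderm list. The counts were 30, 37 and 43 of 45 ectoderm regulators, higher for both factors, and 21, 18 and 24 of 35 mesoderm regulators.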

How the data were processed

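The values came from the deposited lists, 1 for each group. For peaks, the authors aligned reads to the X. tropicalis v10 genome (Bowtie2 2.2.7 in the submitters' processing notes), called them with MACS2 and filtered them by the irreproducible discovery rate. Their deposited columns gave the ratio (fold enrichment over input) and the −log10 p of each peak. The authors joined called loci within 12 kb with ROSE, and the deposited H3K27ac table gave locus counts, locus lengths (values of other kinds) and a ROSE signal used only through its rank and cutoff. The H3K27me3 list, pooled over replicates per its header, gave positions and ranks only; its stitching was read from that header, that of endoderm H3K27ac from the ectoderm table. Read depth is not given in the sources used here. The labels' extract protocol names an anti-VegT antibody for all samples, while the design text names antibodies to the marks; titles were followed.

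Intervals were merged and intersected in Python 3.11.15 (numpy 2.4.6, pandas 2.3.3, scipy 1.17.1, matplotlib 3.10.9) with code tested on simulated intervals. Mitochondrial and scaffold regions stayed in the lists. Gene positions and symbols came from RefSeq (UCB_Xtro_10.0), on 10 chromosomes, where 409 of 440 listed genes were found. As this table gives no strand, windows at both gene ends replaced the planned windows at start sites. Named genes were every endoderm regulator and, in each other list, up to 4 in the commonest state and up to 4 with both marks, ordered by bases with both marks; peaks were the 3 strongest in each state and stretches the 3 longest. A few genes and peaks that this rule takes are not reported here. Members and lists were chosen with earlier results of these data known. With 1 list per group no test between samples was made.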

Additional observations from a re-analysis of the deposited data

Results flagged for a closer look

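The endoderm H3K27ac list held a region of 17076 bp on the mitochondrial genome, which carries no histones, and it ranked 8 of all regions by signal; it was singled out as signal in data that no comparison addressed. The H3K27me3 list had a mitochondrial region of 17588 bp, ranked 27203, and the first Ep300 list a peak of 17594 bp with a fold enrichment of 2.06, while the second wild-type list and the FSMO list of endoderm had none.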

How the results depend on the processing

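Each main share moved beyond its interval under most alternatives, and none changed sign, since shares have none. In the order of H3K27ac regions with H3K27me3, H3K27me3 regions with H3K27ac, acetylated bases with H3K27me3, Ep300 peaks in both marks, Ep300 peaks in H3K27me3 alone, Foxi2 and Sox3 peaks of stage 10.5 in both marks, and genes with both marks at their ends, the values were 28.7%, 19.6%, 19.8%, 21.5%, 26%, 11.1%, 10.5% and 14.3%. With H3K27ac regions of 1 locus they were 14.7%, 4.91%, 14.5%, 0.932%, 46.6%, 0.381%, 0.526% and 3.31%. With H3K27me3 regions above the ROSE cutoff they were 0.869%, 63.8%, 2.57%, 4.93%, 6.92%, 0.248%, 0.314% and 1.72%. With regions of 1 locus in both lists, an alternative chosen after seeing the data, they were 2.53%, 1.44%, 1.5%, 0.197%, 6.68%, 0.0662%, 0.0819% and 0.737%. These settings use fewer regions. An overlap of at least 50% gave 14.3% and 11.4% of the regions, 20.1%, 9.6% and 8.99% of Ep300, Foxi2 and Sox3 peaks in both marks and 8.85% of genes. The summit alone gave 20.1%, 9.5% and 9% of those peaks, and the stronger 50% of peaks 25.4%, 13.1% and 12.9%. The share of Ep300 peaks in H3K27me3 alone stayed within its interval in these last 3 settings. The second wild-type Ep300 list gave 18.2% in both marks and 19.7% in H3K27me3 alone. Genes with both marks made up 9.34% by end bases alone, 12.5% of protein-coding genes and 28.6% over the gene extended by 1000 bp, the last chosen after seeing the data. Endoderm regulators with both marks numbered 2 with H3K27ac regions of 1 locus, 0 with H3K27me3 regions above the cutoff, 0 with regions of 1 locus in both lists and 18 to 30 otherwise. Hox genes with H3K27me3 alone numbered 32 to 36, except 2 with regions of 1 locus in both lists. Later lineage regulators with H3K27me3 alone numbered 7 with H3K27me3 regions above the cutoff and 20 with regions of 1 locus in both lists, and housekeeping genes with H3K27ac alone 16 with H3K27ac regions of 1 locus and 20 with regions of 1 locus in both lists. No paired analysis was possible because each group was deposited as 1 list, and for the same reason no replicate could be left out.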
